A study of Arabidopsis thaliana with 12 samples.

Results

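*LBD16*, *LBD29* and *PUCHI* are 3 transcription factor genes of lateral root initiation in *Arabidopsis thaliana*. They were taken as the probe sets listed with exactly 1 gene in the platform annotation and that gene being one of the 3. Each gene had 1 such probe set, so the members were 3 of 22810 probe sets, and 3 of the 13513 listed with exactly 1 gene. *LBD16* (AT2G42430) was read by 265856_at, *LBD29* (AT3G58190) by 251565_at and *PUCHI* (AT5G18560) by 249992_at.

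Lateral roots start when auxin triggers division of founder cells in the pericycle, a layer inside the root. Auxin removes the Aux/IAA repressors from auxin response factors (ARFs), and the activating factors ARF7 and ARF19 then switch on *LBD16* and *LBD29*, which encode LOB-domain proteins needed for those divisions. *PUCHI* encodes an AP2/ERF factor that is induced by auxin and restrains and patterns division within the young primordium. *ARF2*, the gene mutated in this study, belongs to the class of ARFs that is generally described as repressive.

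Transcripts were measured in whole light-grown seedlings, cultured for 7 days in shaken liquid Murashige and Skoog medium with 1.5% sucrose under 16 h light and 8 h dark. WT_control and WT_IAA were Columbia wild type given ethanol or 5 µM indole-3-acetic acid (IAA), the most abundant natural auxin, for 2 h at 24 °C. Seedlings of arf2-6_control and arf2-6_IAA carried the *arf2-6* allele in the Columbia ecotype and were treated the same way. Each of the 4 groups held 3 arrays. Nothing in the labels tells separate cultures from repeat arrays, so each p-value covers the spread among these 12 arrays, which may be technical. The nature of the *arf2-6* lesion is not given in the labels. There were 0 probe sets listed with *ARF2* as their only gene, so its transcript did not check the genotype labels. Probe sets listed with several genes or with no gene were not searched for it.

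The values are log2 signals, and the lowest deposited value was 5.64 log2, a signal of 50. A group with all its arrays there has an unknown level at or below it, so differences against it are lower bounds, written as at least N-fold. Between 42.5 and 43.2% of probe sets lay at that value on an array, and array medians were 6.16 to 6.22 log2. WT_control 3 and arf2-6_control 2 stood apart from their groups in the same way, with a correlation of 0.633 between their deviations across probe sets. Of the marker genes, the leaf photosynthesis genes *RCA*, *LHCB4.1* and *LHCB4.2* (3 of 8 listed) and the root hair expansins *EXPA7* and *EXPA18* (2 of 9 listed root genes) had a single-gene probe set. All 5 were above the lowest value on every wild-type array, so leaf and root RNA were both present.

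IAA raised all 3 genes in wild-type seedlings. *LBD16* rose 4.04-fold, *LBD29* at least 11.1-fold and *PUCHI* at least 2.02-fold within 2 h. Rises were called for 3 of 3 members, where 4.64% of the 14215 tested probe sets were called higher. The members were chosen with earlier results of these data known. This count and those below are therefore a description and no test of the 3 genes as a set. Probe sets at the lowest value on every array were not tested. *LBD29* and *PUCHI* were at that value on every control array, so they were tested only through their IAA arrays. A fall could not have been called for them, so their direction was fixed in advance. A call means an adjusted p under 0.05 in limma with Benjamini-Hochberg adjustment over all tested probe sets.

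*LBD16*, which acts in the founder cells before their first division, read 5.96, 5.83 and 5.90 log2 on WT_control arrays 1, 2 and 3. On WT_IAA arrays it read 7.98, 8.00 and 7.75 log2. All 3 treated arrays lay above all 3 controls, with a gap of 1.79 log2 between the nearest arrays. The group means were 5.89 ± 0.06 and 7.91 ± 0.14 log2 (SD, n = 3), and the limma difference was 2.01 log2 (SE 0.11, adjusted p = 6.9e-07). It was the only member above the lowest value on every WT_control array, so its fold is a measured size and not a bound.

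*LBD29*, a related LOB-domain factor that also acts on cell division in the pericycle, was at the lowest value on each WT_control array. On WT_IAA arrays it read 9.30, 9.11 and 8.93 log2. It thus went from no measurable signal to a mean of 9.11 ± 0.19 log2 (SD, n = 3), and the nearest treated array stood 3.29 log2 above the controls. The limma difference was 3.47 log2 (SE 0.16, adjusted p = 1.5e-07), which is a lower bound on the rise. Control groups at the lowest value show no spread, which lowers this SE. In a limma fit on WT_control and WT_IAA alone the adjusted p was 4.2e-04. That fit still holds a control group without spread, so its estimated error is lowered too.

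*PUCHI* too was at the lowest value on each WT_control array. On WT_IAA arrays it read 6.66, 6.79 and 6.53 log2, a mean of 6.66 ± 0.13 (SD, n = 3). These are low signals, with a geometric mean of 101 against the lowest signal of 50. The treated arrays were 0.89 log2 or more above the controls, and the limma difference was 1.01 log2 (SE 0.08, adjusted p = 5.8e-06). Here too the control groups show no spread, and in the fit on WT_control and WT_IAA alone, which still holds such a group, the adjusted p was 0.0024. Across all tested probe sets the median IAA effect in the wild type was 0.00 log2, and 10.9% had all 3 treated arrays above all 3 controls, as the 3 members had.

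**Figure D1:**
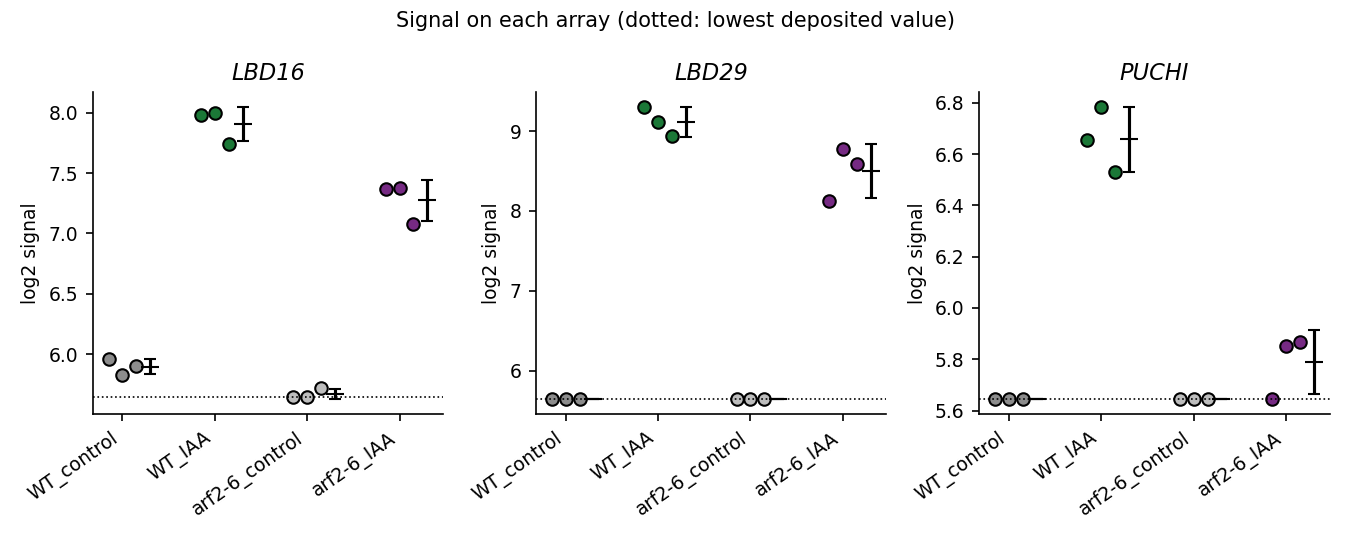
Log2 signal of *LBD16*, *LBD29* and *PUCHI* on each of 12 arrays, by group; points are arrays, the bar beside them is the mean ± SD (n = 3), and the dotted line is the lowest deposited value of 5.64 log2. For each gene the 3 WT_IAA arrays sit highest; *PUCHI* in arf2-6_IAA lies at 5.64 to 5.87, close to the dotted line.

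In *arf2-6* seedlings, *LBD16* and *LBD29* rose with IAA and *PUCHI* was not called. The calls were 2 of 3 members, where 3.75% of tested probe sets were called higher and the median effect was -0.02 log2. As in the wild type, *LBD29* and *PUCHI* could not have been called lower. *LBD16* read 5.64, 5.64 and 5.72 log2 on arf2-6_control arrays, with the first 2 at the lowest value, and 7.37, 7.37 and 7.08 log2 on arf2-6_IAA arrays. It rose at least 3.04-fold, and its treated arrays cleared the controls by 1.36 log2. The limma difference was 1.60 log2 (SE 0.11, adjusted p = 5.4e-06). With signals below 100 raised to 100, a higher lowest value for the controls, the *LBD16* difference was 0.63 log2 in *arf2-6* and 1.27 in the wild type, both still called.

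*LBD29* was at the lowest value on each arf2-6_control array and at 8.12, 8.78 and 8.58 log2 on arf2-6_IAA arrays. The rise was at least 7.21-fold, with a gap of 2.48 log2 to the controls (limma difference 2.85 log2, SE 0.16, adjusted p = 8.8e-07). In the limma fit on arf2-6_control and arf2-6_IAA alone, which still holds a control group without spread, the adjusted p was 0.0020. The SD over the arf2-6_IAA arrays was 0.34 log2, the widest of any group for the 3 genes, and array 1 was the low one.

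*PUCHI* was at the lowest value on each arf2-6_control array and read 5.64, 5.85 and 5.87 log2 on arf2-6_IAA arrays. Array 1 of the treated group was itself at the lowest value, so the groups touch. The limma difference was 0.14 log2 (SE 0.08, adjusted p = 0.33, 95% confidence interval -0.02 to 0.31). Because the control level is known only as at or below the lowest value, a rise below the measurable range could not have been seen. Of all tested probe sets, 11.3% had 3 treated *arf2-6* arrays above all 3 controls, and *LBD16* and *LBD29* were among them.

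Without auxin the genotypes could be compared for *LBD16* alone. *LBD29* and *PUCHI* were at the lowest value on all 6 control arrays, and no difference between genotypes was detectable there. *LBD16* averaged 5.89 ± 0.06 log2 in WT_control and 5.67 ± 0.04 in arf2-6_control (SD, n = 3), a difference of -0.23 log2 (SE 0.11, adjusted p = 0.38). The mutant arrays were all below the wild-type arrays, by 0.11 log2 at the nearest, but the difference was not called. Its 95% confidence interval ran from -0.47 to 0.02 log2, which corresponds to 72.2 to 101% of the wild-type signal. With 2 mutant arrays at the lowest value, the true difference could be larger. Calls were made for 0 of 3 members, where 0.858% of tested probe sets were called in either direction by limma (2135 at an unadjusted p under 0.05) and 6.97% had 3 mutant arrays below all 3 wild-type arrays, as *LBD16* had.

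With IAA all 3 genes had lower signals in *arf2-6* seedlings than in wild-type seedlings. The *LBD16* signal in arf2-6_IAA was 64.4% of that in WT_IAA, the *LBD29* signal 65.0% and the *PUCHI* signal 54.7%. Calls for a lower level were made for 3 of 3 members, where 5.86% of tested probe sets were called lower and the median difference was 0.00 log2. Since the members were chosen with earlier results of these data known, this count is no test of them as a set. For each gene the 3 arf2-6_IAA arrays were below the 3 WT_IAA arrays, which held for 18.6% of tested probe sets. This comparison shares its arrays with the IAA effects above, so the lower levels and the smaller fitted rises in the mutant are not separate measurements.

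*PUCHI* differed by -0.87 log2 (SE 0.08, adjusted p = 3.3e-04), 1.83-fold lower in *arf2-6*, with a gap of 0.66 log2 between the nearest arrays of the genotypes. Since arf2-6_IAA array 1 was at the lowest value, the fold may be larger. In the fit on the 6 IAA arrays alone, where arrays at the lowest value in the control groups cannot lower the estimated error, the adjusted p was 0.022. With signals below 100 raised to 100 the difference was -0.051 log2 (adjusted p = 0.44), since the *PUCHI* signal on the WT_IAA arrays lies close to 100.

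*LBD16* was 1.55-fold lower (log2 -0.64, SE 0.11, adjusted p = 0.0075, 95% confidence interval 54.4 to 76.2% of the wild-type signal). Its highest mutant array, 7.37 log2, was 0.37 below the lowest wild-type array. *LBD29* was 1.54-fold lower (log2 -0.62, SE 0.16, adjusted p = 0.035, interval 51.1 to 82.6%), and its nearest arrays were 0.15 log2 apart. The *LBD29* call rested on single arrays. Its adjusted p was 0.098 and 0.091 when arf2-6_IAA 1 or 3 was dropped, 0.10 and 0.11 when WT_IAA 1 or 2 was dropped, and 0.11 on the 6 IAA arrays alone. The *LBD29* difference fell in size to -0.43 log2 without arf2-6_IAA 1, the array with its lowest treated reading. An exact permutation test over 3 arrays against 3 gave 0.1 for each of the 3 genes, the smallest p that this design allows.

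**Figure D2:**
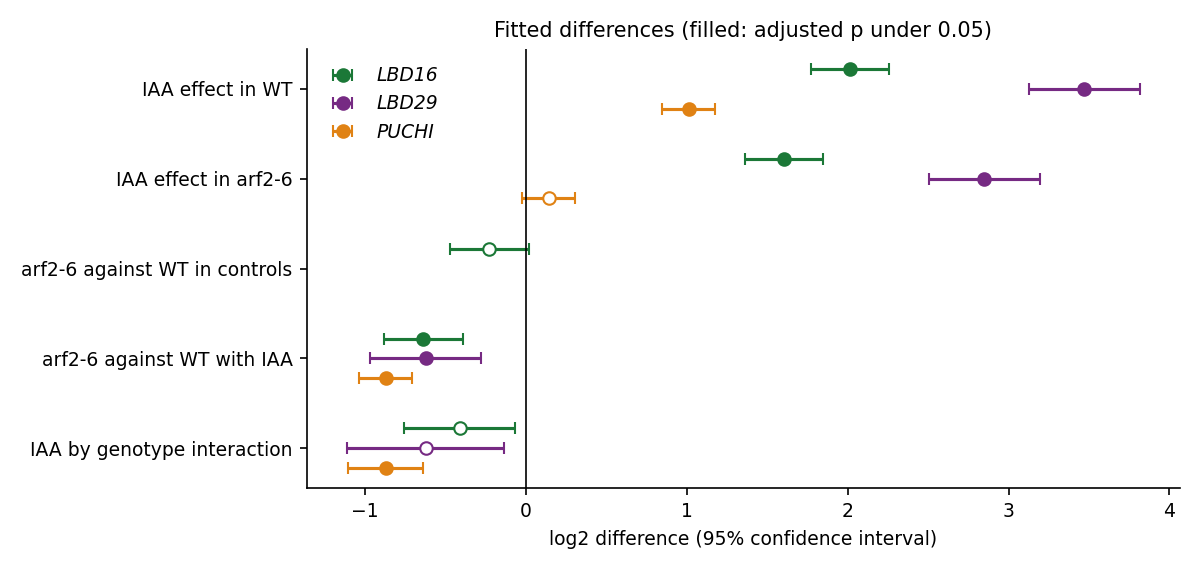
Fitted log2 differences of *LBD16*, *LBD29* and *PUCHI* (points) with 95% confidence intervals in 5 comparisons; filled points have an adjusted p under 0.05 in limma, and no point is drawn where both groups lie at the lowest value. With IAA all 3 genes lie at -0.87 to -0.62 log2 in *arf2-6* against the wild type, and only *PUCHI* is filled for the interaction.

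**Figure D3:**
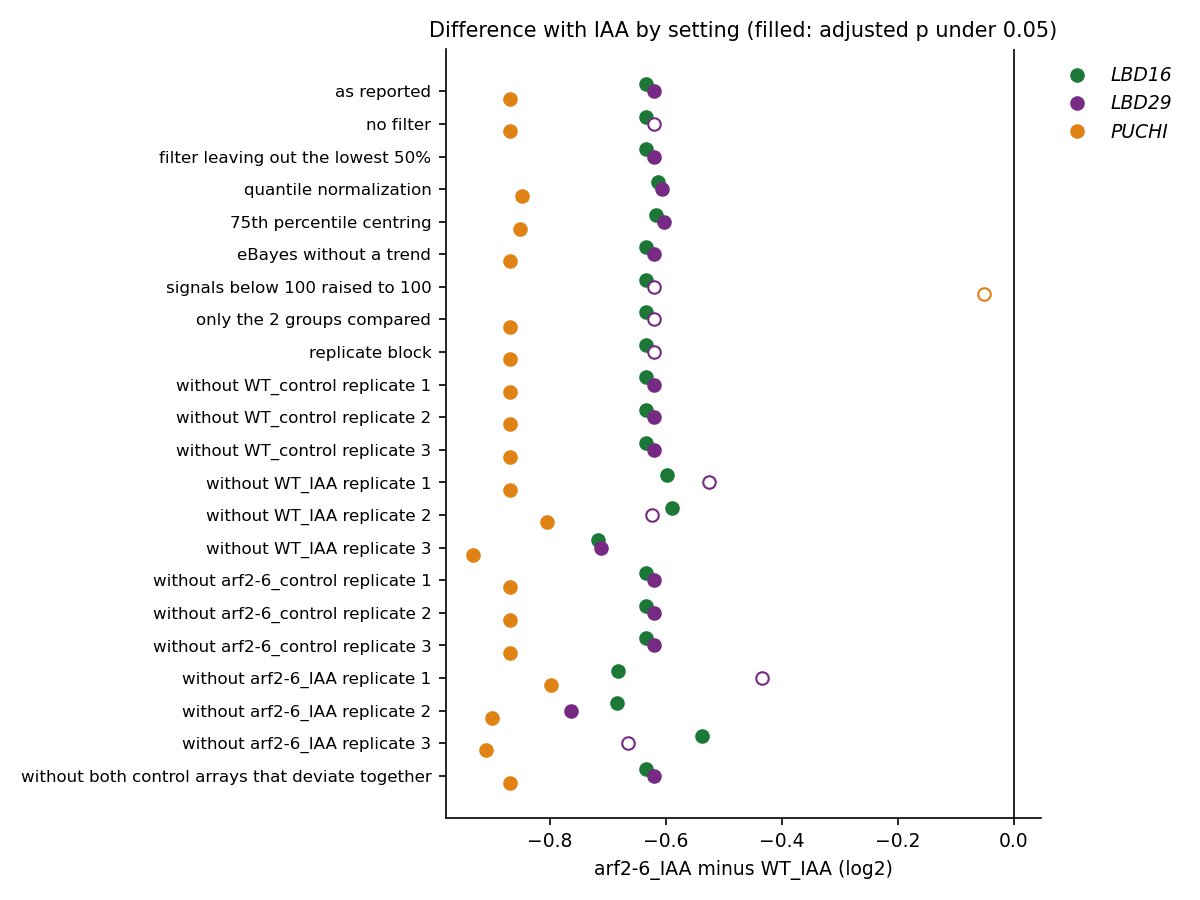
The arf2-6_IAA minus WT_IAA difference (log2) of each gene under each processing setting or with arrays left out; filled points have an adjusted p under 0.05. *LBD16* stays filled between -0.72 and -0.54 log2, *LBD29* is open in 8 settings, and *PUCHI* moves to -0.051 and opens where signals below 100 are raised to 100.

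Other quantities differed on the same IAA arrays. The root hair expansins *EXPA7* and *EXPA18* were both lower in *arf2-6* with IAA (log2 -0.96, adjusted p = 0.018, and -1.54, adjusted p = 0.0055). Their summed signal ran from 264 to 424 in WT_IAA and from 116 to 141 in arf2-6_IAA, with *EXPA18* at the lowest value on 1 of 3 arf2-6_IAA arrays. In controls it ran from 219 to 365 in the wild type and from 152 to 199 in *arf2-6*. The leaf genes summed to 14533 to 15363 in WT_IAA and 15569 to 16038 in arf2-6_IAA, with 0 of 3 called. The mean difference between 3' and 5' control probe sets (6 pairs), a sign of RNA length, was 0.51 to 0.62 log2 in WT_IAA and 0.42 to 0.49 in arf2-6_IAA. The part of these in the lower level of the 3 genes was not tested. In whole seedlings, fewer cells that express a gene and less RNA per cell cannot be told apart.

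The IAA effect itself was tested for a difference between genotypes by the interaction, the mutant effect minus the wild-type effect. *PUCHI* was called at -0.87 log2 (SE 0.11, adjusted p = 0.023), 1 of 3 members, where 0.0985% of tested probe sets (14 of 14215) were called lower and 2 were called higher. *LBD29* measured -0.62 log2 (SE 0.22, 95% confidence interval -1.11 to -0.13) and *LBD16* -0.41 (SE 0.16, interval -0.75 to -0.06), both at an adjusted p of 1.00. For *PUCHI* and *LBD29* both control groups lie at the lowest value, so the interaction equals the difference with IAA and is a fitted value, not an exact size. Since the control levels below that value are unknown, it does not settle whether the IAA effects of these genes differ. All 16 called interactions had at least 1 group of 3 arrays at the lowest value, and 12 had 2 or more, against 10.3% and 6.90% of tested probe sets. Such a group shows no spread, which lowers the estimated error. The *PUCHI* call ended without any 1 of the 6 control arrays (adjusted p from 0.052 to 0.11) and without WT_control 3 and arf2-6_control 2 together (0.095).

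By level, the order for *LBD16* was WT_IAA, arf2-6_IAA, WT_control and arf2-6_control. WT_IAA and arf2-6_IAA were called apart and the control groups were not, while arf2-6_IAA against WT_control was not tested. For *LBD29* the order was WT_IAA, arf2-6_IAA and then both control groups, which have no order. For *PUCHI* WT_IAA stood first, and arf2-6_IAA was not called apart from arf2-6_control. Within groups the genes did not vary in step throughout. On WT_IAA 3 all 3 genes were below their group mean, by 0.16 (*LBD16*), 0.18 (*LBD29*) and 0.13 log2 (*PUCHI*) in size. On arf2-6_IAA 1, *LBD29* deviated by -0.37 log2 and *PUCHI* by -0.14, while *LBD16* was at 0.10.

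The genes most like each member were found by the root mean square difference in log2 over the 12 arrays, after each probe set's own mean was subtracted, among 7636 other tested single-gene probe sets. Since the choice used all 12 arrays, differences near those of the member follow from it, and the values of these genes are given as a description with no test. For *LBD16* these were AT5G39580 (0.18 log2), AT3G18560 (0.18) and AT4G01870 (0.19), where the median over all candidates was 0.96. AT5G39580, a class III peroxidase gene, averaged 5.79 ± 0.11 and 8.04 ± 0.27 log2 in WT_control and WT_IAA, and 7.37 ± 0.15 in arf2-6_IAA (SD, n = 3). Between genotypes with IAA, AT5G39580 stood at -0.67 log2, AT3G18560 at -0.62 and AT4G01870 at -0.41. The fitted IAA effect of AT4G01870 was 1.73 log2 in the wild type and 1.81 in *arf2-6*.

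For *LBD29* the nearest were AT4G17350 (0.26 log2), *HAT2* (0.30), a homeodomain-leucine zipper gene, and *IAA29* (0.33), an Aux/IAA repressor gene, against a median of 1.62. Between genotypes with IAA, AT4G17350 stood at -0.54 log2, *HAT2* at -0.33 and *IAA29* at -0.044. *IAA29* shared the lowest value in both control groups, and read 9.29 ± 0.13 log2 in WT_IAA and 9.25 ± 0.09 in arf2-6_IAA (SD, n = 3).

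For *PUCHI* the nearest were AT5G25440 (0.13 log2), AT5G51380 (0.13) and *UGT76D1* (0.14), a glycosyltransferase gene, against a median of 0.47. Between genotypes with IAA they stood at -0.79, -0.72 and -0.78 log2, as the choice favours. AT5G51380 and *UGT76D1* were also at the lowest value in both control groups and on 2 of 3 arf2-6_IAA arrays. The members were not among each other's nearest genes. *LBD16* was the 18th nearest to *LBD29* (0.70 log2), and *PUCHI* lay 0.64 log2 from *LBD16* and 1.30 from *LBD29*, distances that include the different sizes of the fitted rises.

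**Figure D4:**
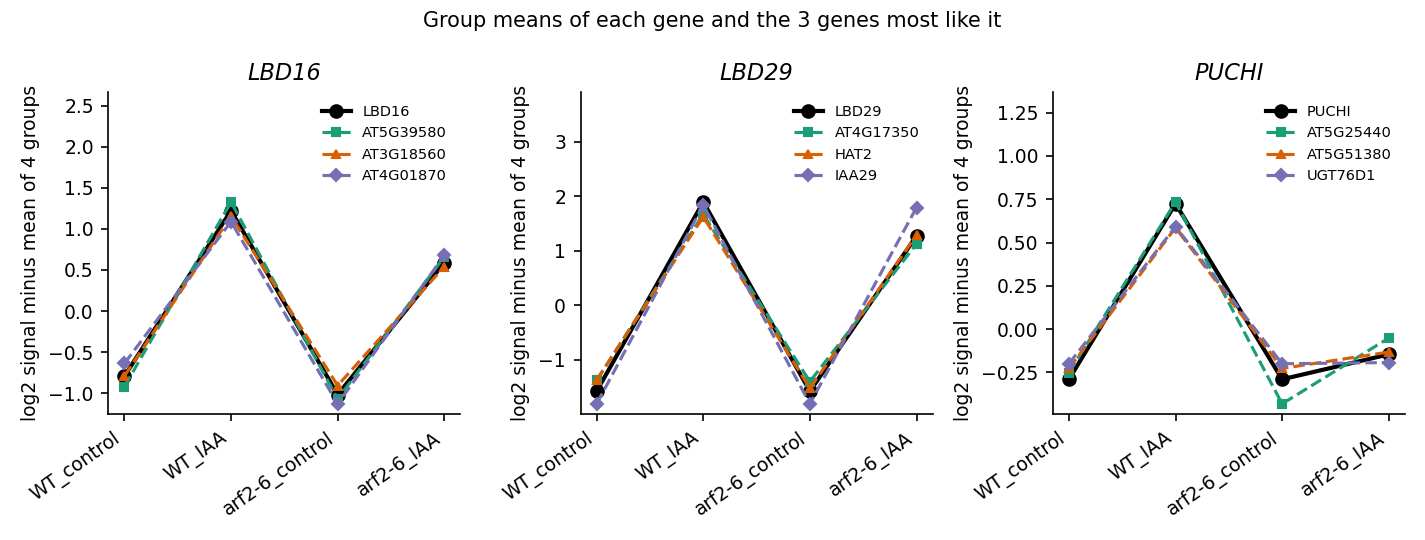
Group means of log2 signal, each minus the mean of the 4 groups, for *LBD16*, *LBD29* and *PUCHI* (black, solid) and the 3 genes most like each (coloured, dashed). *IAA29* stands at the same height in WT_IAA and arf2-6_IAA where *LBD29* is lower in arf2-6_IAA; the genes near *PUCHI* are highest in WT_IAA.

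Few other genes of the pathway could be read through single-gene probe sets. The annotation listed no gene for 8794 of the 22810 probe sets and several genes for 503. A gene counted here as without a single-gene probe set may therefore still be measured by the array. Of 57 listed genes of auxin perception, ARFs, Aux/IAA repressors, founder cells, primordium, transport and emergence, 5 had a single-gene probe set and 4 were tested. The 2 that are not members were *IAA18*, an Aux/IAA gene, and *CR4* (ACR4), a receptor kinase gene of root cell division that never left the lowest value on the 12 arrays. *IAA18* averaged 7.28 log2 in WT_control and 7.76 in WT_IAA (log2 0.48, adjusted p = 0.090), and measured 0.27 with IAA in *arf2-6* (0.38) and 0.26 between genotypes with IAA (0.33). The list's 4 tested genes held 3 rises in the wild type and 2 in *arf2-6*, and 3 lower levels in the mutant with IAA, all of them members. These repeat the calls given above. Without the 3 members the list had 1 tested gene and 0 calls in any comparison. Of 40 LBD family genes in the gene table, *LBD16* and *LBD29* were the 2 with a single-gene probe set. *AUR1*, a mitotic kinase gene and the 1 cell cycle gene of 14 with a single-gene probe set, measured -0.39 log2 with IAA in the wild type (adjusted p = 0.17) and -0.27 in *arf2-6* (0.37). The 4 reference genes lay between -0.34 and 0.05 log2 in the comparison of genotypes with IAA, with 0 called.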

How the data were processed

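RNA of 12 seedling samples was measured on one-colour Affymetrix arrays. The authors deposited 1 log2 signal per probe set and array; the sources used here do not give how they summarised and scaled these signals. Genes came from the platform annotation, and symbols from a table of assembly TAIR10.1, used for names and neighbours (13436 of 13513 single-gene probe sets matched). AFFX controls (64) were left out, as was the 30% of lowest mean signal, which with ties took 8531 probe sets and left 14215. Group means over all 12 arrays were fitted with limma 3.58.1 in R 4.3.3 (8 residual degrees of freedom, variance prior following mean signal, two-sided, Benjamini-Hochberg over all tested probe sets); plots used Python 3.11.15. The fit was tested on simulated data for the IAA effect in the wild type only, with changes placed in probe sets of higher mean signal. The simulation did not cover rises from the lowest value or the interaction.

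Named genes are the 3 members, listed pathway genes, the 3 genes most like each member, and the neighbours, which were looked up after the fit. From the lists, 2 entries whose symbol and locus did not pair were dropped. Members and lists were chosen with earlier results of these data known. Alternatives changed the filter, scaling, variance prior, lowest value, samples in the fit and replicate block, and left out arrays. The number of arrays limits the precision.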

Additional observations from a re-analysis of the deposited data

Results flagged for a closer look

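The interaction of IAA and genotype was called for *PUCHI* (-0.87 log2, limma adjusted p = 0.023). Its control level is unknown in both genotypes, so the call does not settle whether the IAA effects differ. *PUCHI* was higher with IAA on 3 of 3 wild-type arrays and above the lowest value on 2 of 3 *arf2-6* arrays.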

How the results depend on the processing

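The IAA effects of *LBD16* and *LBD29* in both genotypes, and the *LBD16* difference with IAA, kept direction and call under every alternative run. Their sizes did not all hold: with signals below 100 raised to 100, which by construction lifts the control groups, the IAA effect fell to 1.27 log2 in the wild type and 0.63 in *arf2-6* for *LBD16*, and to 2.47 and 1.85 for *LBD29*. Apart from scaling changes, the direction of the *LBD29* IAA effects was fixed in advance, since its control arrays were at the lowest value. With 1 of 12 arrays left out, the IAA effect in the wild type was 3.38 to 3.56 (*LBD29*) and 0.95 to 1.08 log2 (*PUCHI*). With IAA, the *LBD29* difference was -0.76 to -0.43 and lost its call 4 times, and the *PUCHI* interaction was -0.93 to -0.80 and lost its call 6 times. The *LBD29* difference with IAA (-0.62) also lost its call with no filter (adjusted p = 0.075), with signals below 100 raised to 100 (0.061), on the 2 groups alone (0.11) and with the replicate block (0.053). The *PUCHI* interaction was -0.83 (0.058) with 75th percentile centring and -0.87 (0.095) without both deviating control arrays, a choice made after seeing the data. Raising signals to 100 took *PUCHI* to 0.051 for IAA in the wild type and to -0.051 with IAA and for the interaction, all uncalled. It put *LBD16* in both control groups and *PUCHI* in both *arf2-6* groups at that value, and these gave no value. The filter leaving out 50% removed *PUCHI*.

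Counts of called probe sets with 1 array left out were 756 to 1343 for IAA in *arf2-6* (1210 with all arrays), 23 to 477 in controls (122), 325 to 1536 with IAA (1249) and 2 to 46 for the interaction (16). For IAA in the wild type (1194) the count was 728 with signals raised to 100 and 622 on 2 groups alone. For IAA in *arf2-6* it was 651 with signals raised. In controls it was 30 with no filter, 72 with signals raised, 2 on 2 groups alone, 235 with the replicate block and 559 without both deviating arrays. With IAA it was 648 with no filter, 657 with signals raised and 1998 without both arrays. For the interaction it was 0 with the 50% filter (520 in the reported fit at an unadjusted p under 0.05, limma), 4 with centring, 8 without the trend, 31 with signals raised, and 6 both with the block and without both arrays. The cause of these shifts was not tested.

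Over 18 same-number pairs the correlation of deviations from group means ran from -0.50 to 0.49, with a median of 0.04 (-0.02 over other-number pairs). Between control and IAA arrays of the same genotype, same-number pairs gave -0.08, 0.31 and 0.49 in the wild type. In *arf2-6* they gave 0.29, 0.03 and 0.30. Other-number pairs of this kind ran from -0.53 to 0.33. The replicate block shared each number across both genotypes, so a pairing within each genotype was not fitted. The block changed no call of the members other than that of *LBD29* with IAA.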

Other observations

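The nearest protein-coding genes in the gene table were read beside *LBD29* on both sides and beside *PUCHI* on one side; those beside *LBD16* had no single-gene probe set. AT5G18550, before *PUCHI*, rose in the wild type with IAA (log2 0.45, adjusted p = 0.014), measured 0.10 in *arf2-6* (0.63) and was lower in *arf2-6* with IAA (-0.37, adjusted p = 0.039), with an interaction of -0.35 (1.00). AT3G58180, before *LBD29*, measured 0.31 log2 with IAA in the wild type (adjusted p = 0.056) and 0.03 in *arf2-6* (0.92), and was lower in *arf2-6* with IAA (-0.35, adjusted p = 0.037). AT3G58200, after *LBD29*, lay at the lowest value on every array except 1 of the arf2-6_control group. These genes were chosen after the values of the members were seen.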
